A study of Drosophila melanogaster with 3 samples.

Results

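Deep intronic peaks are reproducible binding regions of the CG3919-eGFP protein whose summit lay inside the span of a gene, in no annotated exon, and more than 3000 bp from the nearest transcription start site (TSS) of any gene. They were chosen by position alone, on genome build dm6 with the Ensembl annotation and without transposable element entries. This rule took 2243 of the 9569 reproducible peaks, or 23.4% (Wilson 95% interval 22.6% to 24.3%, which covers counting error only). The data are chromatin immunoprecipitation with sequencing (ChIP-seq), in which sonicated chromatin is recovered with an antibody and the recovered DNA is sequenced. The animals were whole Drosophila melanogaster prepupae of a transgenic line that stably carries CG3919 fused at its C-terminal end to GFP, and the antibody was directed against GFP. Males and females were pooled, the age within the stage is given as unknown, and all 3 biological replicates belong to this 1 group. No source used here gives the promoter of the fusion, and a group without the tag was not analysed here. Because whole animals were used, the tissue in which a region was occupied cannot be told apart. The labels mark the 3 samples as separate biological replicates, and the spread given below is that between them. All 3 were set against 1 shared control.

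Introns of flies, like those of mammals, hold many enhancers, short stretches that raise transcription of a promoter from a distance. Long first introns of developmental regulators are a common place for them, and 1 gene can carry a series of enhancers that act in different tissues. The prepupa is the stage at which pulses of the steroid hormone ecdysone start metamorphosis, through nuclear receptors and other early response genes. CG3919 itself is a gene still known by its annotation number.

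The regions are shown first as sequence, because a short shared string recurs in them. The lines below give the 100 bp on either side of the summit for strong deep intronic peaks, read 5′ to 3′ from the RefSeq genome of release 6, which is dm6. Capitals mark the 5-mer CACTG and its reverse complement CAGTG, called the core from here on. The first 4 lines are the strongest members for which sequence is printed here, and they show windows with and without the core.
CG32486, chr3L:3060692-3060892, plus strand: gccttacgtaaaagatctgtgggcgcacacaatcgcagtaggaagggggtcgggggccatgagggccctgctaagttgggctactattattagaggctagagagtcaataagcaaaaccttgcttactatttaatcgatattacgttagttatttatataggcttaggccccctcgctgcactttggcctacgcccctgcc
CG42238, chr2L:21009415-21009615, plus strand: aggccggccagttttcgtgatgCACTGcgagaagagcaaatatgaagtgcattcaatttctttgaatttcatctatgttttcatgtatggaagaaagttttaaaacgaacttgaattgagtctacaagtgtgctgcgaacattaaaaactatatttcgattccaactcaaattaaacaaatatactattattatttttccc
lncRNA:CR45668, chrX:5896053-5896253, plus strand: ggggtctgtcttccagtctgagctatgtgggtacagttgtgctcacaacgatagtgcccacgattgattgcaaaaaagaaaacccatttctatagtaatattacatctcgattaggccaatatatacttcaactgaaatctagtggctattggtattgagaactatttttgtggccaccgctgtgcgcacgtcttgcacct
Eip78C, chr3L:21253813-21254013, plus strand: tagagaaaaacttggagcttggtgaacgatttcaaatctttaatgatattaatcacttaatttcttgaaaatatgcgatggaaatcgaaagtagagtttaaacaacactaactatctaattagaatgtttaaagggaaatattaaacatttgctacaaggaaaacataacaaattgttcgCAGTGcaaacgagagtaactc
The next 3 lines are the strongest such members that hold a core on each side of the summit, with CACTG on the left and CAGTG on the right, so that both read towards the summit from outside. They show the arrangement that was more common than its mirror image among deep intronic summits.
Cad86C, chr3R:10834993-10835193, plus strand: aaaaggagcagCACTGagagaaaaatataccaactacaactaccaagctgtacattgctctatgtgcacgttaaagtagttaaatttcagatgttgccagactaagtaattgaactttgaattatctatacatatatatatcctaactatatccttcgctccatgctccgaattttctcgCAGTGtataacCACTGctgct
Prp16, chrX:14218078-14218278, plus strand: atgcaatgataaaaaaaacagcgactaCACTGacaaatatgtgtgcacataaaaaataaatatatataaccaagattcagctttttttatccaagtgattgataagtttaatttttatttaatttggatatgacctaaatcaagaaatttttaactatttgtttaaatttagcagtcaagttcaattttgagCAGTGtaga
mtgo, chr2L:16598437-16598637, plus strand: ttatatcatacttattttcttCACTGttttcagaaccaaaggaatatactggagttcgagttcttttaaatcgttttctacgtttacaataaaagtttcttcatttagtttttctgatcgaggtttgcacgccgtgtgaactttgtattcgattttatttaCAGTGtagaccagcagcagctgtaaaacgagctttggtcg
The window in the intron of Cad86C, a cadherin gene, had its inner cores 87 bp to the left and 82 bp to the right of the summit, and the left one was followed by the letters of the longer string CACTGAGA. In Prp16, the gene of a splicing helicase, the distances were 71 bp and 94 bp. In mtgo they were 77 bp and 63 bp. These 3 members ranked 206, 252 and 273 among the reproducible peaks.

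Strength is given here as a rank by the authors' signal within a list, with 1 the strongest, because the scale of that signal is stated nowhere in the sources. Each replicate has a deposited list of 30000 candidate regions, peaks and background together. To compare like with like, the strongest 9569 candidates of each replicate were placed in the same location classes. By that count 24.3%, 22.1% and 22.3% of the candidates of replicates 1, 2 and 3 were deep intronic, a mean of 22.9% ± 1.21 (SD, n = 3). Among the 18657 pooled candidates that overlapped no reproducible peak, the share was 30.9%. Read depth is unknown from these lists.

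Deep introns held fewer peaks per base than introns close to a promoter, and more than intergenic DNA far from one. The territory that satisfied the rule covered 36.1 Mb, 26.9% of the 6 main chromosome arms, and held 62.2 reproducible peaks per Mb. In the replicates the density was 64.4, 58.5 and 59.2 per Mb, a mean of 60.7 ± 3.20 (SD, n = 3). Intronic territory 0.5 to 3 kb from a TSS held 110.1 reproducible peaks per Mb, and its replicate mean of 108.2 ± 3.03 (SD, n = 3) did not overlap that of deep introns. Windows within 500 bp of a TSS held 187.6 per Mb, intergenic DNA 0.5 to 5 kb from a TSS 69.0, and intergenic DNA more than 5 kb away 31.4. Over the replicates, deep minus near intronic density was -45.7, -46.2 and -50.7 peaks per Mb, and deep introns were above distal intergenic DNA by 30.0, 30.1 and 30.2. In an exact two-sided sign-flip permutation test over the 3 replicates each of these differences had p = 0.25, the smallest this test allows with 3 replicates.

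**Figure D1:**
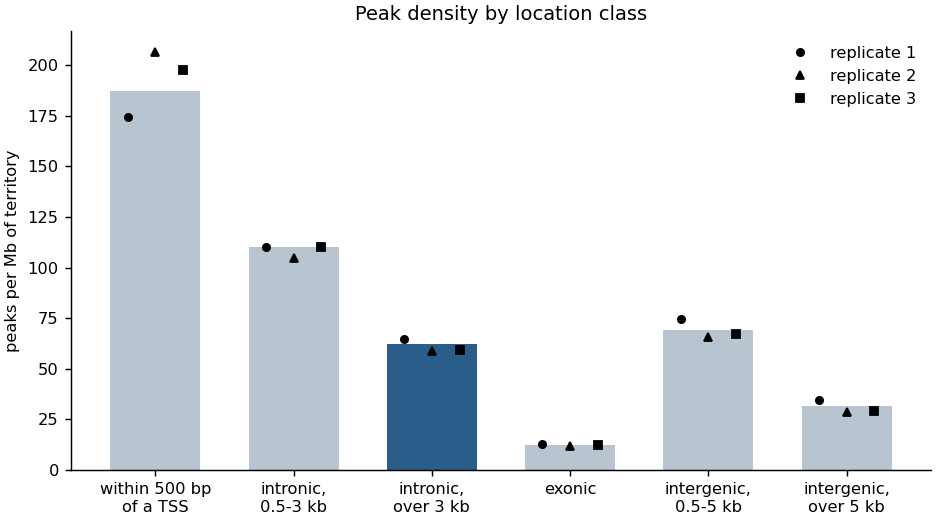
Peaks per Mb of territory (vertical axis) in 6 location classes. Bars are the 9569 reproducible peaks, points are the strongest 9569 candidates of each replicate, and the deep intronic class (dark) stands at 62.2 per Mb, between near introns at 110.1 and distal intergenic DNA at 31.4.

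Density fell with distance from the TSS. It was 82.4 peaks per Mb at 3 to 5 kb, 76.0 at 5 to 10 kb, 67.4 at 10 to 20 kb, 41.1 at 20 to 40 kb and 3.31 beyond 40 kb. The replicate means were 82.7 ± 3.69, 73.8 ± 3.80, 64.2 ± 3.84, 39.6 ± 3.65 and 3.45 ± 0.127 per Mb (SD, n = 3). The replicate values of neighbouring bins did not overlap at any step. Transposable elements took 6.45% of the territory at 3 to 5 kb and 12.5% beyond 40 kb. Outside these elements the density ran from 87.9 per Mb in the nearest bin to 3.78 in the farthest. The farthest bin covered 4.54 Mb. Of the 20 protein-coding genes with most eligible territory, 14 held no member, in 5.23 Mb together. How much of the farthest bin lies in these genes, and their part in the fall, was not tested. The median distance of a member to its nearest TSS was 7314 bp, with quartiles of 4757 and 12224 bp. The most distant member lay 52433 bp from any TSS, in an intron of heph, the gene of a polypyrimidine tract binding protein.

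Density also differed by the order of the intron. First introns of canonical protein-coding transcripts held 763 members at 99.1 per Mb, second introns 667 at 74.1 per Mb, and the third or later introns 566 at 35.5 per Mb. The replicates gave 98.2 ± 1.89, 71.8 ± 4.38 and 34.3 ± 3.46 per Mb (SD, n = 3), without overlap between the 3 groups. The remaining 247 members lay in no intron of a canonical coding transcript, at 72.2 per Mb. Members in first introns were nearer to a TSS, at a median of 6677 bp, than those in second introns, at 8406 bp. The part of distance in the difference, and that of the large genes without a member, was not tested. By rank, first-intron members had a median of 4750 and those of the third or later introns 5667.

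**Figure D2:**
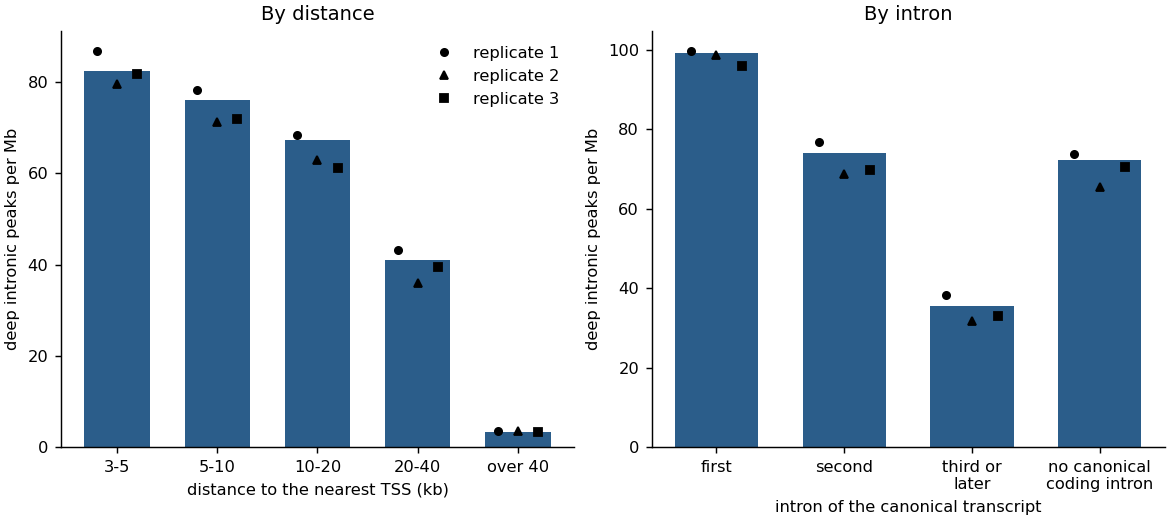
Deep intronic peaks per Mb of eligible territory (vertical axes) by distance to the nearest TSS (left) and by intron of the canonical transcript (right). Bars are reproducible peaks and points the 3 replicates: density falls from 82.4 to 3.31 per Mb with distance, and from 99.1 in first to 35.5 in the third or later introns.

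Transposable elements and the fourth chromosome held few members. Only 3 of 2243 summits, 0.134%, lay in an annotated transposable element, although such elements make up 8.85% of the eligible territory. The placing of reads from repeated sequence is not stated, and its part in this was not tested. Arm 4 held 3 members at 8.01 per Mb, against 54.9 to 71.9 per Mb on the other arms, where X and 2L were highest and 3R lowest. Of the 20 protein-coding genes with the most eligible territory, 14 held no member, and together these had 5.23 Mb of it. The largest were Myo81F with 1926.5 kb, Pzl with 695.9 kb and lovit with 423.3 kb, and none of the 3 had a deep intronic summit among the strongest 9569 candidates of any replicate. Soft-masked repeats took 41.1%, 35.3% and 46.7% of that territory, against 24.5% over all eligible windows. These genes were chosen after their values were seen.

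The deep intronic peaks were somewhat weaker than promoter-near peaks. Their median rank was 5180 of 9569, against 4625.5 for near intronic peaks and 4438 for peaks within 500 bp of a TSS. In the replicates' own lists the medians were 5217, 4968 and 5284, and they exceeded those of near intronic candidates by 570, 499.5 and 639 ranks. The mean difference was 569.5 ± 69.8 ranks (SD, n = 3), in the same direction in all 3 replicates, with p = 0.25 in the exact sign-flip permutation test. Near and distal intergenic peaks had median ranks of 4740 and 5339 in the reproducible list. In the replicates, deep minus near intergenic medians were 345, 193.5 and 608.5 ranks. Deep minus distal intergenic medians were -391, -174 and 117, without a shared direction. The strongest 10% of the reproducible peaks was 15.9% deep intronic (Wilson interval 13.7% to 18.4%) and the weakest 10% was 27.7% (24.9% to 30.6%). Of the 500 strongest peaks, 69 were deep intronic. Support across replicates was as follows: 1630 members, 72.7% (70.8% to 74.5%), overlapped one of the strongest 9569 candidates in all 3 replicates, against 75.1% of near intronic peaks and 72.0% of peaks at a TSS. In 17 members no replicate gave such an overlap. Members found in all 3 replicates had a median rank of 3886.5 and those found in 1 replicate 8893. The reproducible list was drawn from these same replicates, so weaker members miss the cut at 9569 candidates more often by construction. This link of rank and matching is thus no separate evidence of support. With all candidates of a replicate, 98.2% of the members were matched in all 3.

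The edge of the rule at 3000 bp did not fall in a gap. The 3 members just inside it lay 3003 bp from a TSS in Btk, 3004 bp in klar and 3008 bp in trx. The 3 intronic peaks just outside lay at 2998 bp in btsz and at 2997 bp in CG6282 and spz3.

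The 15 strongest members had ranks between 28 and 141 in the reproducible list. The first was in intron 1 of CG32486 (FBgn0266918), on 3L at 3060592 to 3061011, 5713 bp from the nearest TSS, which belongs to CG16753. It ranked 28 among reproducible peaks and 25, 49 and 23 in replicates 1, 2 and 3. The second, in intron 1 of dnr1 on 2R at 22569717 to 22570452, ranked 85, 24 and 63. The third was in intron 1 of babos on 2R at 22397387 to 22397821, with ranks of 86, 55 and 78. CG42238 followed with ranks of 95, 62 and 75, from a summit 25260 bp from any TSS in an intron of 84.0 kb. The fifth, in lncRNA:CR45668 on X at 5895946 to 5896352, ranked 73, 66 and 95 and was the one host among these 15 that codes for no protein. The ranks of these 5 overlapped between neighbours, so their order is not resolved by 3 replicates.

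Nuclear receptors and chromatin regulators were among the next. Eip78C, an ecdysone-induced nuclear receptor gene, held a peak in intron 3 on 3L at 21253670 to 21254102 that ranked 91, 82 and 67 in the replicates, a mean of 80.0 ± 12.1 (SD, n = 3). Hr4, another nuclear receptor gene of the ecdysone cascade, held one on X at 1947554 to 1947989 with ranks of 123, 125 and 105. Psc, which encodes a subunit of a Polycomb repressive complex, had ranks of 102, 61 and 88. The Trithorax side was represented by trx, which encodes a histone H3 lysine methyltransferase, with ranks of 189, 145 and 119 in its first intron. In gpp, the fly gene of the Dot1 histone methyltransferase, the ranks were 143, 147 and 146, the narrowest spread of the 15 with an SD of 2.08. Tet, a gene of the TET dioxygenase family, gave 121, 140 and 118.

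The remaining 4 of the 15 were in Su(Tpl), dpp, Pak3 and CG34417. The summit in Su(Tpl), which encodes an ELL transcription elongation factor, ranked 81, 141 and 89, and it also lay within the span of Mi-2, the gene of a chromatin remodelling ATPase. The one in dpp, the gene of the fly BMP ligand, lay on 2L at 2433421 to 2433844, 5265 bp from a TSS of dpp, and ranked 82, 129 and 90. Pak3, a p21-activated kinase gene, had ranks of 79, 126 and 116. CG34417 had 108, 108 and 205, the widest spread of the 15 with an SD of 56.0, and only replicate 3 placed it low.

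**Figure D3:**
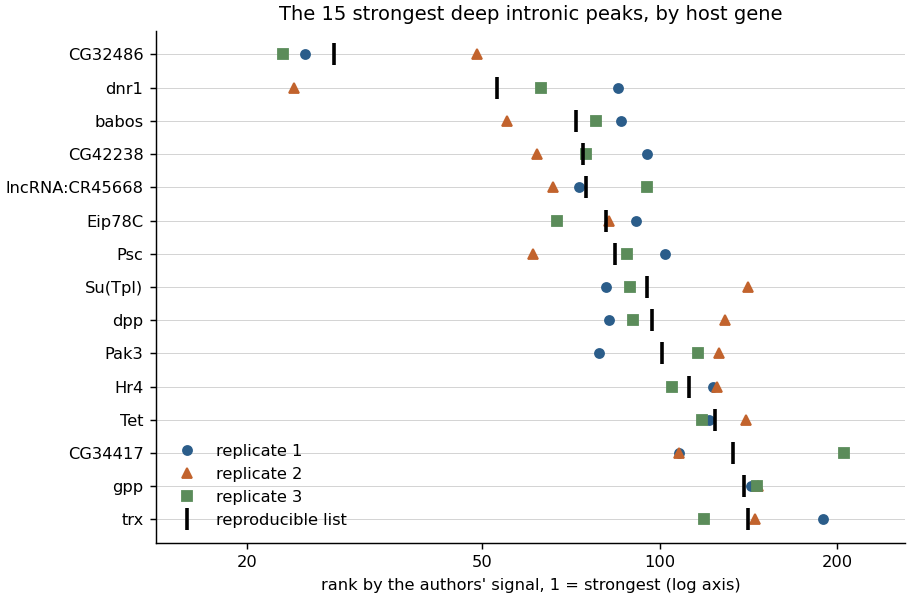
Rank by the authors' signal (horizontal log axis, 1 strongest) of the 15 strongest deep intronic peaks in each replicate (coloured points) and in the reproducible list (black bars). CG32486 ranks 25, 49 and 23; the points of most other hosts overlap with those of their neighbours.

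Host genes often carried several members. In all, 726 genes had at least 1 member in their span, of which 704 code for protein. Among the 2901 protein-coding genes with any eligible territory, these 704 make up 24.3%, and the replicates gave 24.2% ± 1.20 (SD, n = 3). One member was found in 279 host genes and 2 or more in 447, and the 37 genes with 10 or more held 483 members, 21.5% of the total. The share of hosts rose with the length of eligible intron, from 6.34% of genes with at most 5 kb to 65.6% of genes with more than 40 and up to 80 kb, and was 49.1% above 80 kb. For 57.2% of the members the nearest TSS belonged to the gene whose intron held the summit. The target of a region was not measured here.

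The genes with most members were Tet and kirre, with 25 each. In Tet, on 3L at 2786207 to 2879158, the replicates gave 22, 23 and 24, and 18 of the 25 were matched in all 3 replicates. With 71.8 kb of eligible territory, this is 348.2 members per Mb. In kirre, an immunoglobulin superfamily gene of myoblast fusion on X at 2740384 to 3134532, the replicates gave 31, 19 and 22 over 262.4 kb, or 95.3 per Mb. Snoo, which encodes a Ski and Sno family corepressor, held 23 members at 297.5 per Mb. SKIP, the gene of a potassium channel interacting protein, held 20 at 149.4 per Mb. The corepressor gene sbb had 18 members in 42.1 kb of eligible intron, 427.1 per Mb, of which 16 were matched in all 3 replicates. The gene cv-c also had 18, at 301.3 per Mb. The other 4 of the top 10 were heca and the homeodomain gene hth with 17 each, and the ecdysone-induced nuclear receptor gene Eip75B and the Wnt receptor gene fz with 16 each. Their strongest members differed in level: the best member of Eip75B ranked 194 and that of hth only 2045.

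**Figure D4:**
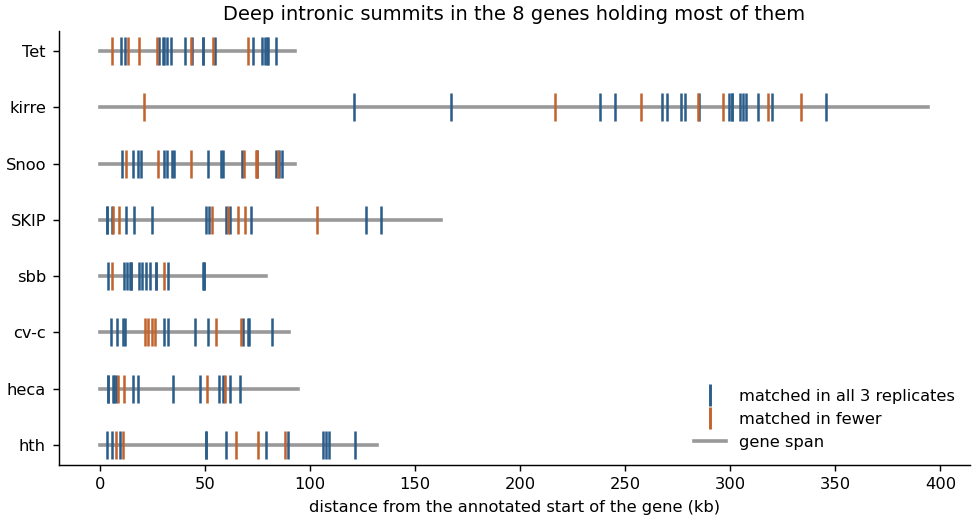
Positions of deep intronic summits (ticks) along the 8 genes that hold most of them, in kb from the annotated start of each gene (horizontal axis). Blue ticks were matched in all 3 replicates and orange ticks in fewer; most of the 25 members of kirre lie in the later part of its span, and most of those of sbb in the first part.

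Members lay close to one another. The median gap to the nearest other member was 2289 bp, and 1543 members, 68.8%, had another within 5 kb. Runs with gaps of at most 5 kb numbered 1205, of which 700 were single members and 70 held 5 or more. The longest run had 14 members over 27.5 kb in plum on 3R, 11 of them matched in all 3 replicates. The next were 13 members over 20.7 kb in sbb and 11 over 18.4 kb in rdx, the gene of a Cullin adaptor. In tara, 9 members stood within 6.28 kb. Neighbouring members of 1 gene share their locus and are not independent.

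Genes of the ecdysone response held members often. Of the 24 such genes with eligible territory 17 were hosts, 70.8%, against 24.3% of all eligible protein-coding genes, and the density was 140.2 members per Mb against 62.1. The replicates gave 136.0 ± 4.15 per Mb (SD, n = 3). These genes also have long introns, with a median eligible length of 14.2 kb against 3.11 kb, and among all coding genes with more than 10 and up to 20 kb the share of hosts was 49.9%. Eip75B held 16 members, Hr4 8, E23 6 and Eip78C 4. E23 encodes an ecdysone-induced ABC transporter, and its best member ranked 741, 610 and 675. The early gene br, which encodes the Broad zinc finger proteins, had 49.9 kb of eligible intron and no member. The lists used here were drawn up with results of these data known, and their counts are descriptions.

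The 6 lists of growth and signalling pathways held 155.6 to 257.5 members per Mb, against 62.1 over all coding genes. Hosts made up 41.7% to 63.6% of their eligible genes, against 24.3% over all coding genes. Their median eligible length was 4.08 to 16.1 kb, and among all coding genes the share of hosts was 36.4% with more than 5 and up to 10 kb and 49.9% with more than 10 and up to 20 kb. The list of insulin, TOR and growth genes had 7 hosts of 11, at 257.5 members per Mb, with 238.1 ± 26.7 in the replicates (SD, n = 3). Its strongest members were in Myc, the growth regulator, at ranks of 213, 394 and 354, and in Mnt, the gene of a transcriptional antagonist of Myc, which held 9. The hypoxia-inducible factor gene sima held 7 members, and the insulin receptor gene InR held 5, all matched in all 3 replicates. Dpp and activin signalling had 9 hosts of 16 at 246.6 per Mb, among them dpp with 5 members, the zinc finger gene shn with 5, sbb with 18 and the glypican gene dlp with 4. The Hippo pathway had 6 of 11 at 194.9 per Mb, led by the protocadherin gene ds with 13 members and kibra with 8. Wnt signalling had 10 of 20 at 171.1 per Mb, from the coreceptor gene arr with 7, fz with 16, fz2 with 10 and the antagonist gene nkd with 6. EGFR and Ras signalling had 7 of 15 at 170.0 per Mb. Its hosts included the kinase gene Raf with 8 members and ranks of 132, 183 and 174 for the best, the receptor gene Egfr with 4, and the ETS factor genes pnt with 2 and aop with 3. The Notch list had 5 of 12 at 155.6 per Mb, including the coactivator gene mam with 13 members and the receptor gene N with 4. The metalloprotease gene kuz, which belongs to the Notch and neuronal lists, held 3, and the glycosyltransferase gene fng held 2.

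Pattern, chromatin and muscle genes also had more than the 62.1 members per Mb of all coding genes. Patterning regulators had 33 hosts of 63, 52.4% against 24.3% of all eligible coding genes, at 103.6 per Mb, with jing at 14 members, Antp at 11, dpp at 5 and knrl at 4. Their median eligible length was 10.4 kb, and 49.9% of coding genes with more than 10 and up to 20 kb were hosts. Polycomb and Trithorax genes had 5 of 20 hosts, 25.0% against 24.3% of all eligible coding genes, and their 24 members stood at 163.0 per Mb in eligible introns that add up to 0.147 Mb. The median eligible length was 1.88 kb in that list, and 6.34% of coding genes with at most 5 kb were hosts. Of that list, trx held 4 members, the Mediator gene skd 3 and Psc 1. The gene jing, counted here too, held 14 of the 24 members and 84.5 kb of the eligible intron. Muscle and mesoderm genes had 7 of 24, 29.2%, near the share of all genes, at 98.8 per Mb over 0.304 Mb. Of their 30 members 14 were in twi alone, in 40.9 kb of eligible intron, so the density of this list leans on that gene. Another 5 were in the integrin gene if, 4 in Zasp52 and 3 in Mef2. Coding genes with more than 5 and up to 10 kb were hosts in 36.4% of cases, and this list had a median of 8.39 kb. The clock genes vri and Pdp1 held 2 and 6 members and were the 2 hosts of 9 eligible clock genes, 22.2% against 24.3% of all eligible coding genes. The clock list had a median eligible length of 2.98 kb, and the share of hosts with at most 5 kb was 6.34%.

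Neuronal gene groups had long introns and fewer members per Mb than the 62.1 of all coding genes. Neuronal adhesion genes had 29 hosts of 80, 36.2% against 24.3% of all eligible coding genes, and 37.2 members per Mb, with 37.1 ± 6.86 in the replicates (SD, n = 3). Their median eligible length was 24.1 kb, and 55.2% of coding genes with more than 20 and up to 40 kb were hosts. Of their 104 members, 25 were in kirre, 9 in the teneurin gene Ten-a and 6 in the semaphorin gene Sema1a. Lar, Con, dpr6 and dpr8, each with more than 100 kb of eligible intron, held none. These genes were chosen after their values were seen. Ion channel and synapse genes had 7 hosts of 46, 15.2%, and 9.80 members per Mb, with 8.91 ± 2.36 in the replicates. At a median eligible length of 14.7 kb, they compare with 49.9% over coding genes with more than 10 and up to 20 kb. The 11 members of this list had a median rank of 7465 among the reproducible peaks, against 5180 over all deep intronic peaks. The best member of a gene ranked 2448 in nAChRalpha6, 3267 in dnc, 7315 in Syn and 7465 in rut. RNA-binding regulators had 12 of 27 hosts, 44.4%, at 27.6 per Mb, including heph with 8 members, pum with 4, and shep and msi with 2 each. That list had a median eligible length of 25.5 kb, to be read beside the 55.2% of genes with more than 20 and up to 40 kb. In whole animals the share of cells in which a gene is active was not measured, and its part in these densities was not tested. The smaller lists gave 3 hosts of 8 for cell death and autophagy (Atg5, Atg1 and hid), 3 of 15 for lipid and fat body genes (bmm, SNF4Agamma and svp), and 0 of 4 for MADF-BESS and insulator factors, which had only 0.00274 Mb of eligible intron.

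The bases at the summits differed from those beside them. For the sequence comparison, only the strongest member of any 500 bp was kept, which left 2110. Each 201 bp summit window was paired with a window of the same size centred 500 bp away on 1 side. The G + C content was 35.7% at the summits and 42.6% in the flanks, against 40.4% over all 179251 eligible windows without unknown bases. In the replicates' own summits it was 36.2%, 35.9% and 35.6%, and the difference from the flank was -6.67 ± 0.349 percentage points (SD, n = 3). The summit window was the poorer one in G + C in 75.0% of pairs. The trough was narrow: the mean fell to 33.0% in the bin of 20 bp next to the summit, rose to 46.3% about 250 bp to the left and 45.9% about 270 bp to the right, and came back to 40.5% beyond 700 bp. Peaks at a TSS showed a smaller difference, -3.62 ± 0.988 points over the replicates, and distal intergenic peaks a larger one, -8.66 ± 0.897. Near intronic and near intergenic peaks were close to deep intronic ones, at -6.00 ± 0.424 and -6.93 ± 0.308, so the trough is not particular to deep introns.

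Of 26 motifs searched on both strands, 4 (15.4%) were found more often at deep intronic summits than in flanks and 6 (23.1%) less often, in two-sided exact McNemar tests with Benjamini-Hochberg adjustment. The 5 with the smallest p were the TATA string TATAAA, in 34.1% of summit windows against 20.1% of flanks (exact McNemar test, adjusted p = 3.11e-23), the GC box GGGCGG, 2.80% against 8.01% (1.01e-12), the ETS string CCGGAA, 2.27% against 5.12% (9.18e-06), the CA repeat CACACACA, 3.65% against 6.87% (1.62e-05), and the E-box CAGCTG, 5.40% against 8.77% (1.07e-04). Eligible windows of the same size held these strings in 23.5%, 6.36%, 4.91%, 5.10% and 7.15% of cases. The strings more frequent at summits were poor in G + C or mixed, namely TATAAA, a run of 8 A, the heat shock string GAANNTTC and the forkhead string TGTTTAC, while those less frequent included the TEAD string CATTCC and the CTCF string AGGGGGC. Fewer calls were made at like base composition, where fewer pairs enter. Among the 605 pairs whose G + C differed by at most 5 points, TATAAA was found in 30.2% of summits and 27.6% of flanks (exact McNemar test, adjusted p = 0.886), and none of the 10 calls was made. The TEAD string stood at 6.94% against 8.93%, CAGCTG at 6.28% against 8.43% and the CA repeat at 4.46% against 6.12% (exact McNemar test, adjusted p = 0.744 for each), in the same direction as over all pairs, so the part of base composition and that of the smaller number of pairs cannot be told apart for these. The ETS string, 2.98% against 3.80%, and the CTCF string, 1.16% against 1.49%, also kept their direction. The heat shock and forkhead strings were as frequent at summits as in flanks, at 5.95% and 4.96%. The GC box, 3.97% against 3.80%, and the run of 8 A, 18.8% against 22.3%, stood in the other direction. In those pairs the 2 motifs called were the Zeste string TGAGTG, 14.2% against 8.60%, and the homeodomain string TAATTA, 11.1% against 17.4% (exact McNemar test, adjusted p = 0.0292 for each). Over all pairs the Zeste string stood at 11.1% against 10.7%, and the homeodomain string, in the other direction, at 15.5% against 13.6%, and neither was called.

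The longer promoter strings DRE and Motif 1 were rare at deep intronic summits, as at other summits away from a TSS. The shorter TATA string, present in 23.5% of all eligible windows, was in 34.1% of deep intronic and 29.7% of TSS summit windows. Near intronic, near intergenic and distal intergenic windows held it in 33.0%, 35.0% and 35.2% of cases. The DRE string TATCGATA was in 0.379% of summit windows and 0.142% of flanks, and the core promoter string GGTCACAC, Motif 1, in 0.758% and 0.284%. Peaks within 500 bp of a TSS held DRE in 4.41% and Motif 1 in 3.94% of windows. Near intronic, near intergenic and distal intergenic peaks held DRE in 0.288%, 0.658% and 0.498%, and Motif 1 in 0.576%, 0.376% and 0.498%. The difference in replicate means between deep intronic and TSS summits was -4.25 ± 0.371 points for DRE and -3.10 ± 0.285 points for Motif 1 (SD, n = 3), with p = 0.25 for each in the exact sign-flip permutation test. The GAGA string GAGAGAG was in 3.13% of deep intronic and 9.52% of TSS summit windows. The nuclear receptor string AGGTCA was as frequent at summits, 4.17%, as in flanks, 4.22%, and the longer FTZ-F1 string CAAGGTCA, which contains it, was in 0.474% and 0.521%. No difference was detected for either (adjusted p = 1.00 for each in the exact McNemar test). The other strings searched that did not pass were CGATA for BEAF-32, which lies within the DRE string, CACGTG and CATATG as E-boxes, TGANTCA for AP-1, TGACGTCA for CREB, CAGGTAG for Zelda, AGATAAG for GATA factors, TGGGAA for Su(H) and TTCNNNGAA for STAT, with adjusted p of 0.0780 or more.

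The core marked in the printed windows was chosen after a search over all 6-mers, with both strands counted as 1. Of 2080 6-mers 467 (22.5%) were more frequent at summits and 803 (38.6%) less frequent, and the calls followed base composition: 35 of the 36 6-mers without G or C were more frequent at summits, and 34 of the 36 made of G and C alone were less frequent. Among the 8 with the smallest p, 6 held A and T alone. They were AAATAT with 50.6% against 28.5%, AATATA with 37.9% against 18.2%, ATATAA with 34.4% against 16.0%, AAAATA with 54.6% against 34.6%, TTAAAA with 45.2% against 26.3%, and ATATTA with 31.5% against 15.8%. The other 2 were AGTGTA, in 21.0% of summits and 6.30% of flanks (exact McNemar test, adjusted p = 1.52e-42), and ACACTG, in 18.4% and 6.45% (adjusted p = 4.75e-30). In the replicates AGTGTA stood at 20.6% ± 0.820 of summits and 6.76% ± 0.244 of flanks (SD, n = 3).

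Strings with the core CACTG were also called at like base composition. Among the 605 pairs of like G + C only 31 of the 2080 6-mers were called, 25 of them more frequent at summits. The one with the smallest p was CAGTGC, in 25.0% of summits and 7.93% of flanks (exact McNemar test, adjusted p = 1.23e-11), followed by ACTGAG with 16.5% against 3.97% and AGTGTA with 21.0% against 7.11%. Of the 8 6-mers that contain the core, 6 were called in these pairs and 7 in all pairs, each time as more frequent at summits. The core was read from 6-mers of this search, and the 605 pairs are part of the same summits. These counts are therefore a description and no separate support for the core. Of the A and T strings above only AATATA was still called.

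The core itself was chosen after these results were seen and is described without a test. It was in 52.3% of the 2110 summit windows, in 29.4% of their flanks and in 27.3% of all eligible windows. The replicates gave 51.6% ± 0.975 at summits and 28.6% ± 0.678 in flanks (SD, n = 3). Among the 605 pairs of like G + C the shares were 56.7% and 28.6%. Windows with at least 2 cores made up 16.1%. The share with a core was higher in stronger members. It was 62.3% (57.6% to 66.8%) in the strongest 20% of the members and 46.4% (41.7% to 51.2%) in the weakest, whereas flanks ranged from 27.0% to 31.8%. A longer string, CACTGAGA, was in 6.73% of summits, 0.284% of flanks and 0.664% of eligible windows. Only 71 of the 2110, 3.36%, had a stretch of 25 bases in common with another member within 200 bp of the summit, and 20.5% of the cores near summits lay in soft-masked bases.

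The core stood beside the summit, not on it. Counted in bins of 20 bp over both strands, it occurred 1.66 times per kb in the bin next to the summit, 5.19 times about 70 bp to the left, 5.90 times about 70 bp to the right and 1.82 times beyond 700 bp. It also had a direction. Within 120 bp, 1155 of 1866 cores, 61.9%, read towards the summit: on the left 569 were CACTG and 337 CAGTG, and on the right 374 were CACTG and 586 CAGTG. In the replicates' own summits 61.2%, 62.0% and 62.6% read towards the summit, a mean of 61.9% ± 0.691 (SD, n = 3). Between 500 and 620 bp from the same summits, 49.7% ± 0.511 did. Cores that face each other across the summit were present in 189 of 2110 windows, 8.96%, and cores that face away in 75, 3.55%. Whether facing pairs go beyond what the direction of single cores gives was not tested. In the facing pairs the median distance between the inner cores was 149 bp, a value bounded by the reach of 120 bp on either side.

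**Figure D5:**
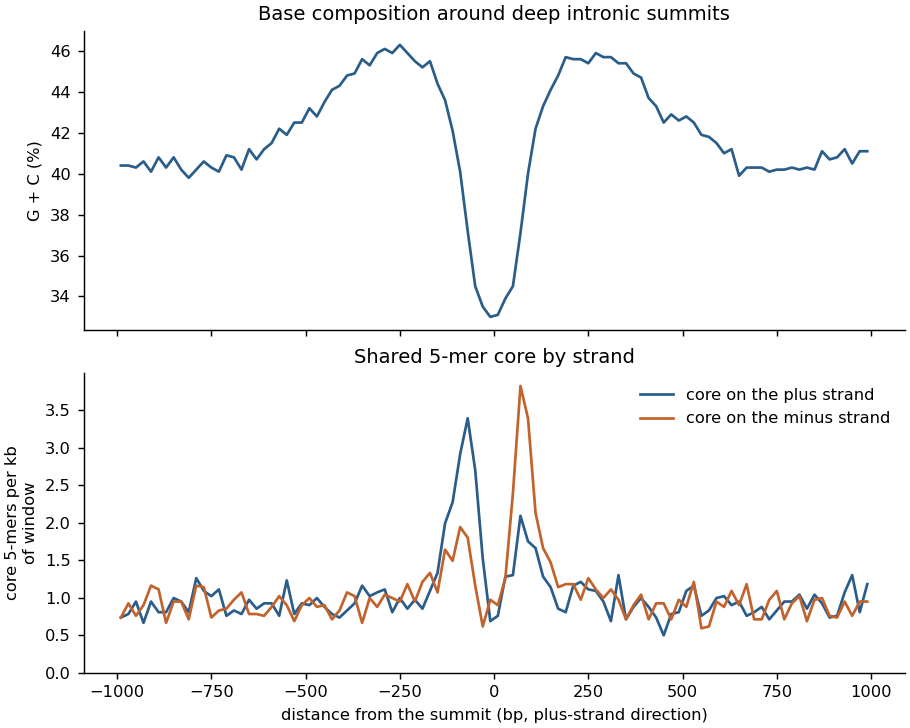
G + C content (upper, percent) and occurrences of the core 5-mer per kb on each strand (lower) against distance from 2110 deep intronic summits, in bins of 20 bp. G + C falls to 33.0% at the summit, and the plus-strand core peaks about 70 bp to the left and the minus-strand core about 70 bp to the right.

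The frequency and the direction of the core were also taken in the other location classes. The core was in 52.3% of deep intronic windows, 50.3% of near intronic and 45.7% of TSS windows, and in 52.1% of near and 54.0% of distal intergenic windows. Over the replicates, deep intronic minus TSS summits was 6.36 ± 0.932 points and deep intronic minus distal intergenic summits was -3.33 ± 2.11 points (SD, n = 3). Of the cores at near intronic and TSS peaks, 53.8% ± 0.617 and 51.2% ± 1.46 read towards the summit (SD, n = 3). Deep intronic summits exceeded TSS summits in this directed share by 11.4, 9.36 and 11.5 points in the 3 replicates, and near intronic summits by 6.66, 8.38 and 9.21. These differences are given without a test, since the core was chosen on the same summits. Intergenic peaks more than 5 kb from a TSS had a higher share, 66.0% ± 1.63, and those 0.5 to 5 kb away had 64.0% ± 0.305. The string CACTGAGA was in 1.75% of TSS, 4.55% of near intronic, 6.73% of deep intronic, 7.14% of near intergenic and 8.80% of distal intergenic summit windows. Deep intronic and near intergenic summits were ordered by it in opposite ways. The reproducible list put near intergenic summits higher, at 7.14% against 6.73%. The replicate means put deep intronic summits higher, at 6.53% ± 0.0101 against 6.38% ± 0.101 (SD, n = 3). In the 3 replicates the deep intronic share was above by 0.0766, 0.258 and 0.106 points. A protein that reads the core was not identified here, and whether CG3919 contacts it was not tested. Neither an untagged line nor a control track was analysed here, so whether the core and its direction also mark control regions was not tested.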

How the data were processed

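ChIP-seq was performed on 3 biological replicates. Per the deposited provenance texts, the authors derived a candidate list from each replicate and 1 control, a pooled list, and a reproducible list thresholded on the irreproducible discovery rate. Aligner, peak caller, their versions and the threshold: not given in the sources used here. The authors' deposited signal per region was used for ranks only. The authors also deposited −log10 q-values, of which 88.1% of reproducible peaks share the highest, so these gave no ranks. Lists of build dm3 were not used, and reads were not analysed.

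Summits were placed on Ensembl release 115 and the RefSeq sequence of dm6, on 6 arms; a summit within 500 bp of a TSS was counted there first, then in exons, introns or intergenic DNA. Overlap of 1 bp counted as a match. Wilson intervals are at 95%. Flanks were taken on a seeded random side, and the threshold was an adjusted p of 0.05. Of 646 names in 18 gene lists, 621 matched directly, 16 through a synonym and 9 not at all. The result of 1 list is not reported here. Members, lists and motifs were chosen with earlier results of these data known. Named are the 15 strongest members, the 10 hosts with most members, up to 4 hosts per list, 5 motifs, 8 6-mers and the 3 peaks on each side of the 3000 bp limit; other names are marked. The McNemar test and the classification were tested on simulated data. Python 3.11.15, numpy 2.4.6, pandas 2.3.3, scipy 1.17.1 and matplotlib 3.10.9 were used.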

Additional observations from a re-analysis of the deposited data

How the results depend on the processing

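No paired analysis was possible because all samples belong to 1 group; differences between location classes were taken within each replicate. With a TSS distance of 2000 bp the deep intronic share became 28.6%, the density 66.2 per Mb and the share of host genes 20.4%. With 5000 bp they were 16.7%, 56.6 per Mb and 29.5%. With TSSs of protein-coding genes only, the share was 25.6%. In the stronger 50% of the peaks the share was 21.5%, the density 28.5 per Mb, the host share 16.0%, the share matched in all 3 replicates 99.0% and the G + C difference -7.98 points; fewer peaks enter by construction. Outside transposable elements, an alternative added after seeing the data, the density was 68.1 per Mb. Leaving out each replicate in turn, which keeps fewer peaks by construction, gave 48.4 to 50.1 per Mb, hosts of 20.9% to 21.5% and a G + C difference of -7.62 to -7.39 points. Matching with 50% overlap of both lengths gave 52.9%, and with all candidates 98.2%. The G + C difference was -4.85 points with flanks 1000 bp away and -8.92 with 50 bp either side of the summit. Flanks 1000 bp away gave 5 motifs in place of 10; the cause was not tested. Pairs of like G + C, also added after seeing the data, gave 2 motifs and 31 6-mers in place of 10 and 1270, from 605 pairs in place of 2110. The G + C difference kept its sign under every alternative run here. The median rank, as a percentile, stayed between 53.3 and 54.8 around 54.1. Read depth is unknown, all replicates share 1 control, and the exact sign-flip permutation test over 3 replicates cannot give a p below 0.25.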
